A study of Mus musculus with 8 samples.

Results

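Hox cluster genes were represented by 50 of the 25697 probes on the arrays, chosen because the platform annotation gave them a symbol of Hox, a letter a to d and a number. They stood for 38 of the 16593 gene symbols on the arrays. The cells came from fore- and hindlimb buds of E11.5 mouse embryos, were grown as primary cultures for 6 h and then received virus for 24 h or none. Gene expression was measured on 8 Illumina bead arrays. AdeCre cells (n = 3 arrays) received an adenovirus that expressed Cre recombinase and carry the label of a treated mutant. AdeLacZ cells (n = 3) received an adenovirus that expressed the bacterial enzyme LacZ and carry the label of a treated control. Untreated cells (n = 2) received no virus and carry a wild type genotype label. All 3 groups bear the same strain label, a 129XB6 stock with floxed Sox4 and Sox11 alleles, in which sites for Cre flank part of each gene. For the untreated cells this strain label conflicts with the wild type genotype label, and the labels do not settle which holds. By the strain label the controls carry floxed alleles too. Cre reached the cells by virus and not by a cell type's promoter, and no arm gave AdeCre to cells without floxed alleles. An effect of Cre alone therefore cannot be told apart from loss of the genes. No time is given for the untreated cells, so virus, time in culture and a possible difference in genotype cannot be told apart in comparisons with them. No source used here says that replicates were separate cultures, so p-values reflect only how these arrays vary, which may be technical.

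Hox genes encode homeodomain transcription factors that lie side by side in clusters. A low number marks the 3′ end of a cluster, whose genes are switched on early and reach far towards the head. A high number marks the 5′ end, whose genes are switched on late and act in the trunk, tail and distal limb. In the limb bud the 5′ Hoxa and Hoxd genes pattern the skeleton along the axis from shoulder to digits, and Hoxa13 and Hoxd13 mark the future hand and foot plate. Hox proteins bind DNA together with Pbx and Meis homeodomain cofactors, and Polycomb proteins hold inactive stretches of the clusters silent.

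Of the floxed genes, Sox4 was used to check the labels of the arms, and Sox11 is not reported here. Sox4, a SoxC transcription factor, gave 10.9, 11.8 and 12.9 intensity units in AdeCre cells, 66.5, 75.9 and 78.1 in AdeLacZ cells and 68.5 and 111 in untreated cells. The AdeCre arrays lay below all others, and the log2 change in AdeCre against AdeLacZ cells was -1.31 ± 0.13 (SE, limma adjusted p = 0.00114). Values are the deposited background-subtracted intensities, and levels of different probes are not comparable. Changes are on a log2 scale after a correction that shrinks those of dim probes. On each array 55.9% to 56.0% of the probes exceeded the detection floor of 8.87 to 8.93 units, and the small number of arrays limits the precision. Over all probes tested, arrays correlated at Pearson's r of 0.991 to 0.994 within a group and 0.979 to 0.991 between groups. Limb mesenchyme markers were present, with 9 of 10 listed genes tested, among them Prrx1 at 529 to 713 units.

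Of the 8 Hox genes that rose in both virus arms below, 4 have an upstream sequence in the RefSeq table used (build GRCm38.p6), which held 22 of the 38 genes, some with more than 1 start. These 4 are shown with Hoxd13, the gene that changed in the other direction, as the 250 bases before the annotated start, 5′ to 3′ on the gene's strand. Capitals mark matches, read on both strands, to 4 motifs: the TATA box, searched as TATAAA, the transcription factor NF-Y's box, searched as CCAAT, a half-site of retinoic acid receptors, searched as AGGTCA, and a joint site of Hox and Pbx proteins, searched as TGATNNAT. A match on the opposite strand appears as its reverse complement, and matches to the TATA box overlap in Hoxd13. They lie at chr6:52204588-52204837 (minus strand) for Hoxa5, and on the plus strand at chr11:96318017-96318266 for Hoxb4, chr2:74721728-74721977 for Hoxd4, chr2:74697513-74697762 for Hoxd9 and chr2:74667975-74668224 for Hoxd13.
Hoxa5: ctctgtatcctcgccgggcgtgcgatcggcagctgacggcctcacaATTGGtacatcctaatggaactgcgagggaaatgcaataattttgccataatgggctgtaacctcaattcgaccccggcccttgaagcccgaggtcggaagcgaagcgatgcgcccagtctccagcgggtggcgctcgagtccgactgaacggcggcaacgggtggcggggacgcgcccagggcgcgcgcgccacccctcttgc
Hoxb4: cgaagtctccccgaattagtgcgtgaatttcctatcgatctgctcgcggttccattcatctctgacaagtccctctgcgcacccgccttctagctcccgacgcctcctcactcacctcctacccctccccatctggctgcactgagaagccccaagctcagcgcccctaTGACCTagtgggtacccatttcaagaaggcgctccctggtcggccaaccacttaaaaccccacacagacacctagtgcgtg
Hoxd4: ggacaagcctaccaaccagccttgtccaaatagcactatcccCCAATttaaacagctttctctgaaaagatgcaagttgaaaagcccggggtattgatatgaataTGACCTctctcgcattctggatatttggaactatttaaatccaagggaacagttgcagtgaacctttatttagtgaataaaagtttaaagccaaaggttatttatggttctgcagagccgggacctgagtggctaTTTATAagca
Hoxd9: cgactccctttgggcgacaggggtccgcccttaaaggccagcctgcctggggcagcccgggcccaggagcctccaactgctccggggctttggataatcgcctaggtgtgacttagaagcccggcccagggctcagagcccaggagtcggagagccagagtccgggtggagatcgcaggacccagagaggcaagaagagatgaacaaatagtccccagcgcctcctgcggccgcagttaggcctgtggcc
Hoxd13: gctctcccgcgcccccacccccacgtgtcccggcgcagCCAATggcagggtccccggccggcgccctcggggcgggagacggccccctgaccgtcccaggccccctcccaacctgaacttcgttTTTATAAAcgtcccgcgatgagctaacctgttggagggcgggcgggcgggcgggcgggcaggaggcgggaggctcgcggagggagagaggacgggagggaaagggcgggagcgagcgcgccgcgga
The window of Hoxd4 had a G and C content of 40.4%, against 58.0% for Hoxb4, 63.6% for Hoxa5, 65.2% for Hoxd9 and 74.4% for Hoxd13. The median over all 32841 promoters was 52.4%. Hoxd4 held matches to the TATA box, the NF-Y box and the retinoic acid half-site, and Hoxb4 to the half-site. Hoxa5 held a match to the NF-Y box, and Hoxd13 to the NF-Y and TATA boxes. The TATA box match of Hoxd4 began 10 bases before the start, on the opposite strand, and those of Hoxd13 126 and 124 bases before it. None of the 4 motifs was present in the window of Hoxd9. Over the 24 Hox promoters in the table, the TATA box was present in 4, the NF-Y box in 14, the half-site in 6 and the joint site in 4. The shares over all promoters with windows of the same length were 12.4%, 33.9%, 14% and 7.69%, in the same order. The matches describe the letters only, and no binding was measured.

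The limb cells gave signal from part of each cluster. At least 1 probe exceeded the floor on all 8 arrays for 19 genes, and 26 genes (33 probes) exceeded it on at least 2 arrays and were tested. The Hoxa cluster was the most completely measured, with 9 of 10 genes tested and 8 of them above the floor on every array (Hoxa2, Hoxa4, Hoxa5, Hoxa7, Hoxa9, Hoxa10, Hoxa11 and Hoxa13). In the Hoxd cluster 7 of 9 genes were tested, with Hoxd8, Hoxd9, Hoxd10, Hoxd12 and Hoxd13 above the floor throughout. In the Hoxb cluster 6 of 10 genes were tested, and Hoxb2 and Hoxb5 were above the floor on every array. In the Hoxc cluster 4 of 9 genes were tested (Hoxc6, Hoxc9, Hoxc10 and Hoxc13), all of them above the floor throughout. Hoxb1, Hoxb8, Hoxb13, Hoxc5, Hoxc12, Hoxd1 and Hoxd3 exceeded the floor on no array, and Hoxa6, Hoxb6, Hoxc4, Hoxc8 and Hoxc11 on 1 array each. These 12 genes had no level that could be compared, and a probe below the floor does not show that a gene was silent.

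**Figure D1:**
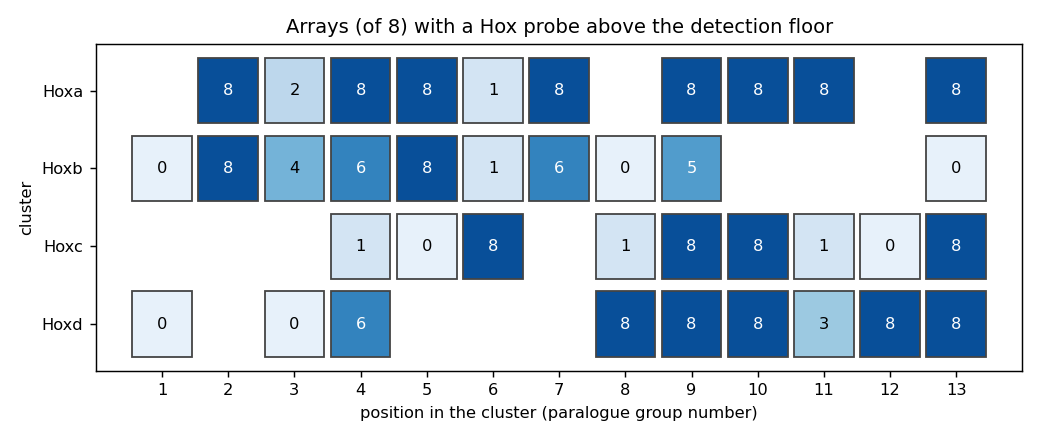
Number of arrays, out of 8, on which at least 1 probe of a Hox gene exceeded the detection floor, by cluster (rows) and position in the cluster (columns). Positions without a cell are not shown, and the 19 dark cells with an 8 are the genes above the floor on every array.

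AdeLacZ cells were set against untreated cells to show what the control virus arm alone looked like. Higher in AdeLacZ cells were 1 of 9 tested Hoxa genes, 3 of 6 Hoxb, 2 of 4 Hoxc and 2 of 7 Hoxd genes. In all, 9 of the 33 probes tested (27.3%) rose and 0 fell, for 8 genes, while 2.73% of all probes tested rose and 2.5% fell, 5.23% together (limma, Benjamini-Hochberg adjusted p under 0.05). Without overlap between the groups, 21 Hox probes were higher and 2 lower, against 18.9% and 19.4% of all probes (38.4% together), and 14 had an unadjusted p under 0.05, against 20.8% of all probes. The genes were Hoxa5, Hoxb2, Hoxb4, Hoxb5, Hoxc6, Hoxc9, Hoxd4 and Hoxd9, and the remaining probe was the dimmer one of Hoxc10. The log2 change was above 0 for 22 of the 26 genes, with a median of 0.32, while it was above 0 for 48.8% of all probes tested, with a median of -0.01. The Hox counts include probes that were tested only through virus-treated arrays, named below, whose rise the filter favoured. In bulk RNA, fewer cells of a type and less RNA per cell cannot be told apart.

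The 8 genes rose in AdeCre against untreated cells too, with 4 others. Here 13 probes (39.4%) rose, for 12 genes, and 1 fell, while 6.61% of all probes tested rose and 7.08% fell, 13.7% together. Without overlap, 14 Hox probes were higher and 4 lower, against 21.9% and 21.3% of all probes (43.3% together), and 15 had an unadjusted p under 0.05, against 28.5% of all probes. The additional genes were Hoxb7, Hoxb9, Hoxc10 and Hoxd8, and the gene that fell was Hoxd13. Hoxb4, Hoxb7, Hoxb9 and Hoxd4 were below the floor on both untreated arrays and entered the test only through virus-treated arrays. The same held for Hoxa3 and Hoxd11, which did not pass, and for dimmer probes of Hoxa2 and Hoxb3. The filter thus favoured a rise of these probes in the arms that exceeded the floor. Their p-values in either comparison, and the counts that include them, are not independent of it. The change was above 0 for 19 of 26 genes, with a median of 0.28, against 50.7% of all probes and a median of 0.00. The 2 comparisons share the untreated arrays, so they are not independent of each other. Without untreated replicate 1, where most of these genes were lower, 3 probes passed in AdeLacZ and 2 in AdeCre against untreated cells. Without untreated replicate 2 the counts were 6 and 8. For AdeLacZ cells the count was 4 without AdeLacZ replicate 2 and 5 without AdeLacZ replicate 1 or 3, and for AdeCre cells it was 9 without AdeCre replicate 2. Hoxc6 and Hoxd4 in both comparisons and Hoxc9 in AdeLacZ cells kept their calls whichever array was left out. Every other Hox call was lost without untreated replicate 1 (limma adjusted p = 0.0557 to 0.331). No other array ended the call of Hoxa5 in either arm or of Hoxb2, Hoxc9 and Hoxd13 in AdeCre cells, while the other calls were also lost without at least 1 further array. Without background correction, Hoxc6 and Hoxc9 lost their calls in AdeLacZ against untreated cells (limma adjusted p = 0.053 and 0.0667).

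Hoxc6, which acts at the level of the forelimb and thorax, had the highest log2 change in both comparisons among the Hox genes above the floor on all arrays. Its probe gave 429.7, 416 and 373 units in AdeCre cells, 421, 403 and 457 in AdeLacZ cells and 111 and 209 in untreated cells. Every virus-treated array lay above both untreated arrays, which themselves differed. The log2 change was 1.32 ± 0.19 in AdeLacZ (SE, 2.49-fold, limma adjusted p = 0.00325) and 1.25 ± 0.19 in AdeCre against untreated cells (2.38-fold, adjusted p = 0.00236). Leaving out untreated replicate 1 lowered these to 0.93 and 0.87, and both still passed. Hoxc9, which acts in the trunk between the limbs, gave 187, 184 and 165 units in AdeCre cells, 204, 192 and 219.5 in AdeLacZ cells and 59.8 and 113 in untreated cells. It showed the same order of arrays, with a log2 change of 1.06 ± 0.17 in AdeLacZ (2.08-fold, limma adjusted p = 0.0064) and 0.88 ± 0.17 in AdeCre cells (1.85-fold, adjusted p = 0.00768). Without untreated replicate 1 these were 0.72, which passed, and 0.55, with an adjusted p of 0.0557.

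Hoxc10, which marks lumbar levels and the hindlimb, had 2 probes. The brighter one gave 94.7, 111 and 153 units in AdeCre cells, 116, 142 and 106 in AdeLacZ cells and 52.6 and 78.3 in untreated cells. The virus arms did not overlap with untreated cells, and the log2 change was 0.64 ± 0.18 in AdeCre cells (limma adjusted p = 0.0385) and 0.67 ± 0.18 in AdeLacZ cells (adjusted p = 0.0594). The other probe passed in both comparisons, at 0.56 ± 0.15 in AdeCre (adjusted p = 0.0306) and 0.72 ± 0.15 in AdeLacZ cells (adjusted p = 0.0195). Hoxc13, known for its role in hair and nails, gave 32.4, 19.5 and 26.1 units in AdeCre cells, 15.7, 25.5 and 22.1 in AdeLacZ cells and 14.4 and 26.3 in untreated cells. Its groups overlapped, with changes of 0.16 ± 0.15 and 0.03 ± 0.15 in AdeCre and AdeLacZ against untreated cells. Of the Hoxc genes tested, 3 thus rose in at least 1 virus arm and the most 5′ one passed in neither.

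**Figure D2:**
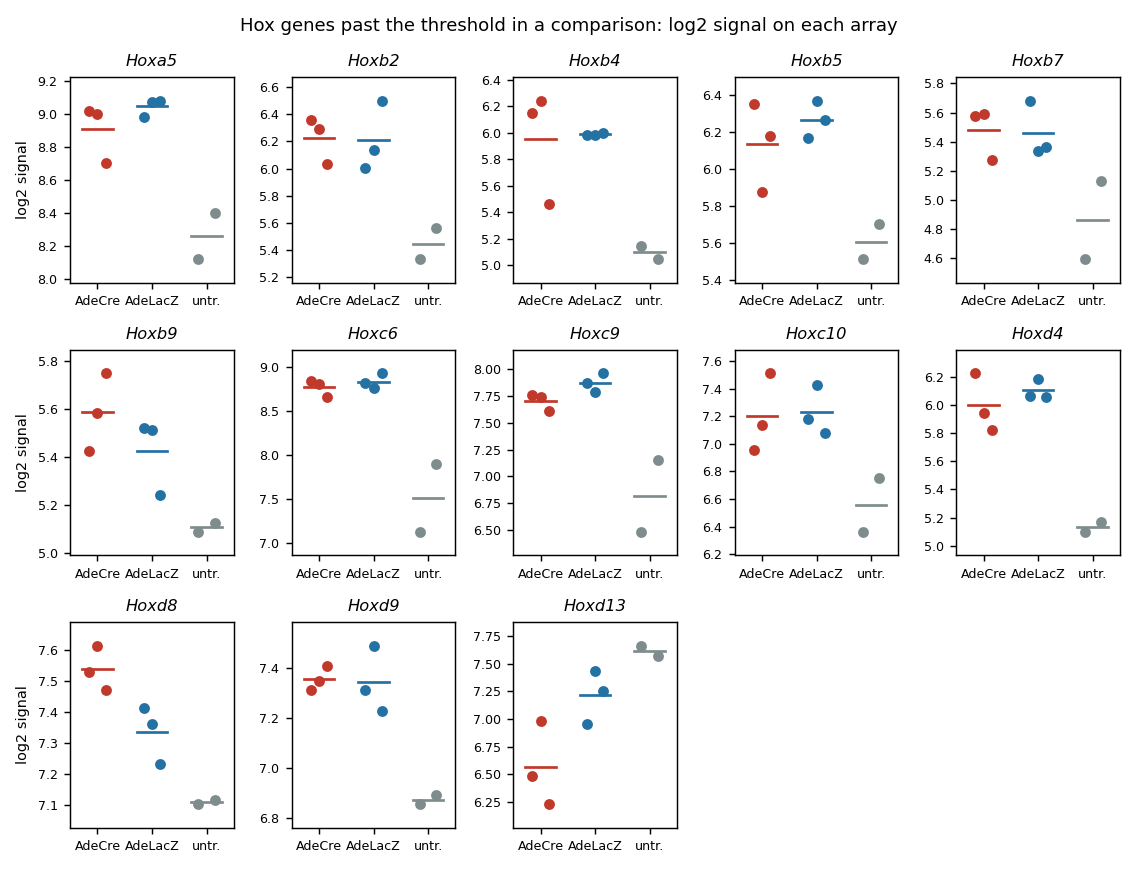
Log2 signal of each Hox gene that passed in at least 1 comparison, on every array, in AdeCre, AdeLacZ and untreated (untr.) cells. Points are arrays, the horizontal line is the group mean, and the vertical scale differs between panels. In 12 panels all virus-treated arrays lie above both untreated arrays, and in the Hoxd13 panel they lie below them.

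In the Hoxb cluster all of the tested genes except Hoxb3 rose in at least 1 virus arm. Hoxb2, a regulator of hindbrain segments, gave 52.6, 48.5 and 35.9 units in AdeCre cells, 34.6, 40.5 and 60.9 in AdeLacZ cells and 10.6 and 17.5 in untreated cells. The virus arms overlapped with each other and not with untreated cells. Its log2 change was 0.78 ± 0.16 in AdeCre (SE, limma adjusted p = 0.0105) and 0.77 ± 0.16 in AdeLacZ against untreated cells (adjusted p = 0.023). Hoxb4, known from neck vertebrae and blood stem cells, gave 41.2, 45.9 and 14.5 units in AdeCre cells, 33.5, 33.4 and 34.3 in AdeLacZ cells and 5.73 and 3.44 in untreated cells. Both untreated arrays were below the floor, so the difference is a lower limit, set against the floor: at least 1.6-fold higher in AdeCre (limma adjusted p = 0.0161) and at least 1.6-fold higher in AdeLacZ cells (adjusted p = 0.0266). AdeCre replicate 3 stood apart from the other AdeCre arrays but above both untreated ones.

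Hoxb5, which takes part in placing the shoulder and forelimb, gave 52.1, 29.0 and 42.9 units in AdeCre cells, 42.2, 53.0 and 47.2 in AdeLacZ cells and 15.9 and 22.3 in untreated cells. All virus-treated arrays lay higher, with a log2 change of 0.53 ± 0.15 in AdeCre (SE, limma adjusted p = 0.0363) and 0.66 ± 0.15 in AdeLacZ cells (adjusted p = 0.0285). Hoxb7 and Hoxb9, both of which act in the thorax, were below the floor on both untreated arrays. Hoxb7 gave 18.0, 18.6 and 9.0 units in AdeCre cells, 21.6, 10.7 and 11.4 in AdeLacZ cells and -5.54 and 5.43 in untreated cells, so at least 1.16-fold and 1.14-fold higher in AdeCre and AdeLacZ cells. It passed for AdeCre (limma adjusted p = 0.0423) and not for AdeLacZ (adjusted p = 0.0831). Hoxb9 gave 13.3, 18.3 and 24.1 units in AdeCre cells, 16.2, 16 and 8.24 in AdeLacZ cells and 4.36 and 5.27 in untreated cells. It was at least 1.25-fold higher in AdeCre cells (limma adjusted p = 0.0356) and at least 1.11-fold higher in AdeLacZ cells, where 2 of 3 arrays measured it (adjusted p = 0.198). Hoxb3 lay near the floor, with 3 probes of different sign, and passed in no comparison.

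In the Hoxa cluster Hoxa5, needed for the neck and upper thorax skeleton and the airways, gave 488, 482 and 387 units in AdeCre cells, 476, 509 and 511 in AdeLacZ cells and 249 and 308 in untreated cells. No virus-treated array overlapped with an untreated one, and the log2 change was 0.64 ± 0.13 in AdeCre (SE, limma adjusted p = 0.0105) and 0.78 ± 0.13 in AdeLacZ cells (adjusted p = 0.00821). The other 8 Hoxa genes tested passed in neither comparison. Hoxa7, its neighbour on the 5′ side with a value in all arrays, gave 416, 340.1 and 240.4 units in AdeCre cells, 372, 339 and 368 in AdeLacZ cells and 209.8 and 294 in untreated cells. AdeCre replicate 3 lay within the untreated range, and the changes were 0.35 ± 0.20 in AdeCre and 0.48 ± 0.20 in AdeLacZ cells (limma adjusted p = 0.277 and 0.187). Hoxa10, Hoxa11 and Hoxa13 pattern the upper, middle and distal limb. With their brightest probes they changed by -0.29 to 0.17 against untreated cells in either arm. Groups overlapped except for Hoxa13 in AdeCre cells, which lay below both untreated arrays. A further Hoxa13 probe lay below both untreated arrays in AdeLacZ cells, at -0.19 ± 0.15, and gave -0.07 ± 0.15 in AdeCre cells. A dim one gave -0.34 ± 0.19 in AdeCre and -0.10 ± 0.19 in AdeLacZ cells with overlap. Neither passed.

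In the Hoxd cluster Hoxd4, Hoxd8 and Hoxd9 rose and Hoxd13 fell in AdeCre against untreated cells. Hoxd4, which specifies neck vertebrae, gave 45.1, 32.0 and 27.0 units in AdeCre cells, 37.4, 43.0 and 37.0 in AdeLacZ cells and 4.60 and 6.23 in untreated cells. It was below the floor in untreated cells and at least 1.66-fold higher in AdeCre (limma adjusted p = 0.00236) and 1.78-fold higher in AdeLacZ cells (adjusted p = 0.00244). It passed in both comparisons under all 19 settings tried, each array left out included. Hoxd8, from the middle of the cluster, gave 155, 166 and 148 units in AdeCre cells, 141, 135 and 121 in AdeLacZ cells and 108 and 109 in untreated cells. The 3 groups did not overlap, and the log2 change was 0.43 ± 0.11 in AdeCre (SE, limma adjusted p = 0.0241) and 0.22 ± 0.11 in AdeLacZ cells (adjusted p = 0.265). Hoxd9, which acts in the upper forelimb, gave 129, 133 and 140.0 units in AdeCre cells, 129, 149.7 and 120.3 in AdeLacZ cells and 86.1 and 89.1 in untreated cells. The virus arms lay above untreated cells by 0.48 ± 0.11 for AdeCre (limma adjusted p = 0.0172) and 0.47 ± 0.11 for AdeLacZ (adjusted p = 0.0371), and the AdeLacZ call was kept with 1 of the 8 arrays left out and lost with the other 7.

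Hoxd13, which patterns the digits, was lower. It gave 60.1, 97.0 and 45.4 units in AdeCre cells, 94.5, 143 and 122 in AdeLacZ cells and 173 and 159.8 in untreated cells. All virus-treated arrays lay below both untreated arrays. The log2 change was -1.05 ± 0.20 in AdeCre (SE, 2.06-fold lower, limma adjusted p = 0.00822) and -0.40 ± 0.20 in AdeLacZ against untreated cells (adjusted p = 0.295). Hoxd10 and Hoxd12, the measured genes between Hoxd9 and Hoxd13 that were above the floor throughout, passed in neither comparison. Hoxd10 gave 803, 915 and 934 units in AdeCre cells, 915, 908 and 1006 in AdeLacZ cells and 867 and 836 in untreated cells, and differed by 0.05 ± 0.11 and 0.14 ± 0.11. Hoxd12 gave 156 and 183 units in untreated cells, and all of its AdeCre arrays, given below, lay lower. It changed by -0.26 ± 0.13 in AdeCre (limma adjusted p = 0.222) and by 0.06 ± 0.13 in AdeLacZ cells, which overlapped with untreated cells.

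Sorted by position over all clusters, no gene at positions 11 to 13 rose in either comparison, and no test of position or cluster was run. In AdeCre against untreated cells 3 of 7 tested genes at positions 1 to 4 rose, 5 of 6 at positions 5 to 8, 4 of 7 at positions 9 to 10 and 0 of 6 at positions 11 to 13, where 1 fell. In AdeLacZ cells the counts of genes that rose were 3, 3, 2 and 0 in the same order. Over all probes tested, 6.61% rose and 7.08% fell in AdeCre, and 2.73% rose and 2.5% fell in AdeLacZ against untreated cells. The median log2 change by position was 0.21, 0.57, 0.48 and -0.15 in AdeCre and 0.34, 0.63, 0.32 and 0.05 in AdeLacZ cells. Across the 26 genes, position and change had a Spearman correlation of -0.46 in AdeCre and -0.53 in AdeLacZ against untreated cells. This describes genes that share arrays and, within a cluster, a chromosome, and they are not replicates. By cluster, 1 of 9 tested Hoxa genes, 5 of 6 Hoxb, 3 of 4 Hoxc and 3 of 7 Hoxd genes rose in AdeCre cells, and 1, 3, 2 and 2 in AdeLacZ cells. The counts by position and cluster, the medians and the correlations include genes that were tested only through virus-treated arrays. Of these, Hoxb4 and Hoxd4 rose in both arms, and Hoxb7 and Hoxb9 in AdeCre cells. Hoxa3 and Hoxd11 were the others and rose in neither arm. The filter favoured a rise of these genes in the arms that exceeded the floor.

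**Figure D3:**
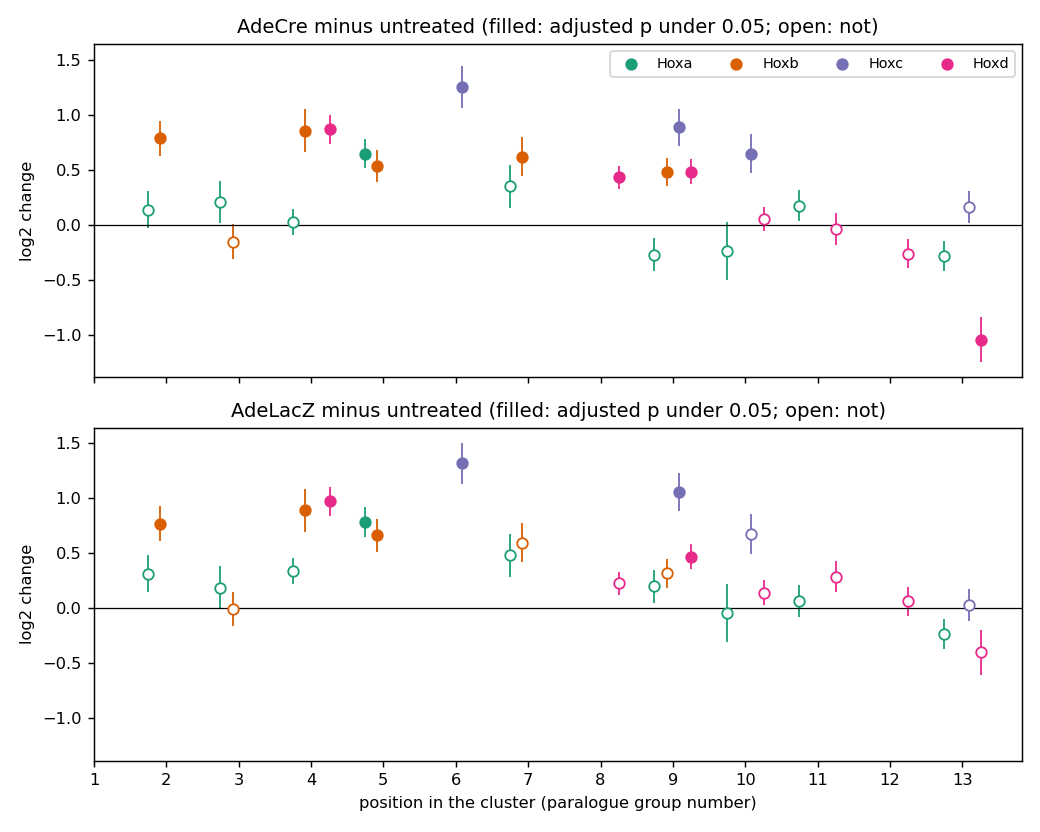
Log2 change of each tested Hox gene against untreated cells by position in its cluster, for AdeCre (upper panel) and AdeLacZ (lower panel). Colours are clusters, bars are limma standard errors, and filled points passed at an adjusted p under 0.05. No gene at positions 11 to 13 rose, and Hoxd13 is the only filled point below 0.

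The untreated arrays were not alike for these genes. Untreated replicate 2 was above replicate 1 in 20 of 26 Hox genes (76.9%, against 49.3% of all probes tested) and in 11 of the 12 genes that rose. Replicate 2 thus lay nearer the virus-treated arrays, and both were below all of them for each of the 12 genes. In AdeCre cells replicate 3 was the lowest of its group in 15 of 26 genes (57.7%, against 37.4% of all probes).

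The comparison of AdeCre with AdeLacZ cells addresses Cre in floxed cells while both arms carried virus. No Hox probe passed: 0 of 33 in either direction, while 1.59% of all probes tested rose and 3.44% fell, 5.03% together (limma adjusted p under 0.05). At an unadjusted p under 0.05 there were 5 of 33 Hox probes, against 21.8% of all probes. The groups did not overlap for 1 probe higher and 5 lower in AdeCre cells, against 14.6% and 13.8% of all probes (28.4% together). Hoxd11, tested only through its AdeLacZ arrays, is included in the unadjusted count and in the lower count without overlap. The log2 change was above 0 for 8 and below 0 for 18 of the 26 genes, with a median of -0.10, while all probes had a median of 0.01 and 52% above 0. On the corrected scale, the 95% confidence interval of the change lay within a 2-fold difference in either direction for 25 genes, all but Hoxd13. The correction shrinks changes of dim probes. For genes near the floor, such as Hoxa3, Hoxb3 and Hoxd11, the interval therefore does not bound the change in RNA. With an offset of 50, or with a trended and robust prior variance, 2 probes passed, and with array weights 1 passed.

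Hoxd13 differed most. As given above, its AdeCre arrays gave 60.1, 97.0 and 45.4 units and its AdeLacZ arrays 94.5, 143 and 122, so that 1 AdeCre array overlapped with AdeLacZ. The log2 change was -0.64 ± 0.18 (SE, 95% confidence interval -1.05 to -0.24, limma adjusted p = 0.0705). With single arrays left out, the adjusted p of Hoxd13 lay between 0.0296 and 0.217. Hoxa9, which acts in the upper limb and in blood progenitors, gave 83.6, 56.5 and 50.7 units in AdeCre cells and 96.9, 98.0 and 99.2 in AdeLacZ cells with its brightest probe. These arrays did not overlap, and the change was -0.47 ± 0.14 (95% confidence interval -0.77 to -0.17, limma adjusted p = 0.0769). A further Hoxa9 probe gave -0.16 ± 0.18 with overlapping groups, and another was below the floor on all arrays. Under the 19 other settings Hoxd13 passed in 3 and Hoxa9 in 4.

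Hoxd12, which like Hoxd13 acts in the distal limb, gave 122, 155 and 132 units in AdeCre cells and 169, 205 and 163 in AdeLacZ cells. The arrays did not overlap and the change was -0.33 ± 0.12 (SE, limma adjusted p = 0.141). Hoxd11, a gene of the forearm and lower leg, gave -0.285, 8.50 and -2.24 units in AdeCre cells and 9.32, 9.54 and 10.1 in AdeLacZ cells. It was above the floor on the AdeLacZ arrays only, by so little that AdeCre cells were at least 1.02-fold lower (limma adjusted p = 0.172). Hoxd11 was tested through these AdeLacZ arrays only, so the filter favoured this direction and the p-value is not independent of it. Hoxa4, which acts in neck vertebrae, gave 24.5, 13.8 and 18.6 units in AdeCre cells and 30.8, 32.1 and 28.7 in AdeLacZ cells. These did not overlap either, with a change of -0.31 ± 0.11 (limma adjusted p = 0.117).

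In the Hoxb cluster the genes with the smallest p were Hoxb9 and Hoxb3, at 0.16 ± 0.12 (SE, limma adjusted p = 0.469) and -0.15 ± 0.14 (adjusted p = 0.587). Hoxb3 was below the floor on all AdeCre arrays and on 2 of 3 AdeLacZ arrays, and its change turned to 0.02 without AdeLacZ replicate 3. In the Hoxc cluster they were Hoxc9, at -0.17 ± 0.15 (adjusted p = 0.563), and Hoxc13, at 0.13 ± 0.13 (adjusted p = 0.612). Hoxc6, Hoxd4 and Hoxa5, which with Hoxc9 had the smallest p in AdeLacZ against untreated cells, changed by -0.07 ± 0.17, -0.10 ± 0.12 and -0.14 ± 0.12 between the virus arms. Hoxd8 was the only probe higher in AdeCre cells without overlap, at 0.20 ± 0.10 (adjusted p = 0.245).

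**Figure D4:**
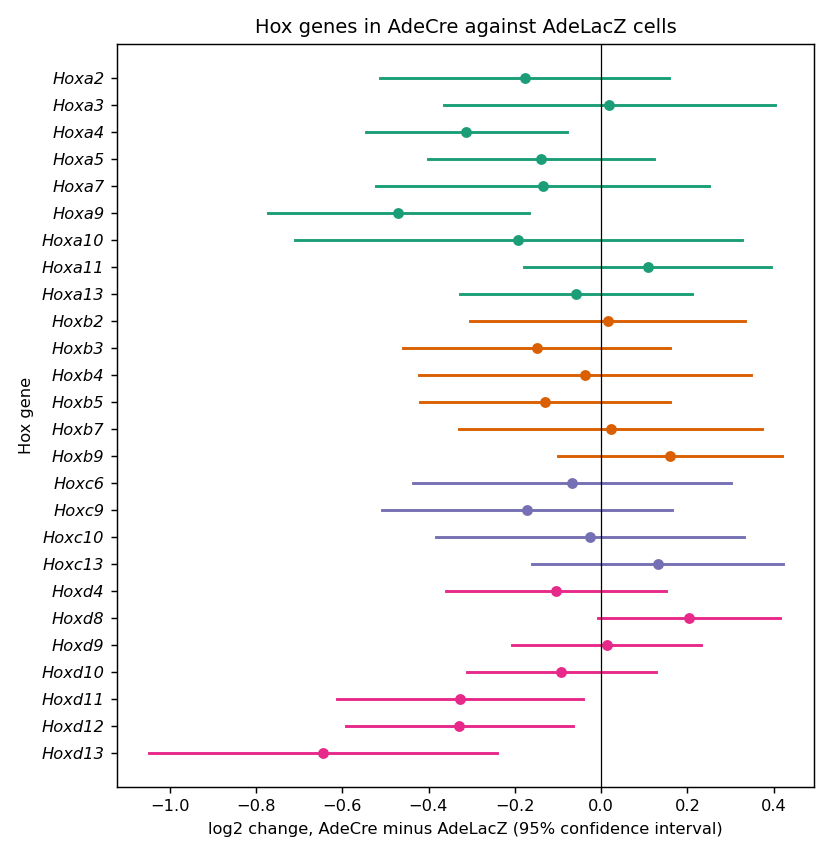
Log2 change of the 26 tested Hox genes in AdeCre minus AdeLacZ cells, with 95% confidence intervals, by cluster and position (colours are clusters). All intervals but that of Hoxd13 lie between -1 and 1 on the corrected scale, which shrinks changes of dim probes. No gene passed after adjustment.

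Among the DNA-binding partners of Hox proteins, Meis1, Meis2 and Pknox2 rose in both virus arms against untreated cells. Pbx2 rose in AdeCre cells, and in AdeLacZ cells with 1 of its probes. Of 9 listed Pbx, Meis and Pknox genes 7 had a tested probe, and the brightest stands for each gene here and in the lists below. In AdeCre against untreated cells 4 rose and 0 fell (6.61% and 7.08% of all probes), in AdeLacZ cells 3 rose and 0 fell (2.73% and 2.5%), and between the virus arms 0 passed (5.03%). All 7 changes of the brightest probes were above 0 in both comparisons with untreated cells, with medians of 0.61 and 0.49. A dimmer Pknox1 probe, above the floor throughout, was lower in AdeLacZ than in untreated cells without overlap, at -0.26 ± 0.12 (limma adjusted p = 0.253). Meis1, Meis2 and Pknox2 were picked for the text after their values were seen. Meis1, which marks the proximal limb bud, gave 318, 381 and 299 units in AdeCre cells, 349, 329 and 383 in AdeLacZ cells and 107 and 160.3 in untreated cells. Every virus-treated array lay higher, by 1.16 ± 0.16 on the log2 scale in AdeCre (SE, limma adjusted p = 0.00147) and 1.25 ± 0.16 in AdeLacZ cells (adjusted p = 0.00192).

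Meis2, its close relative, gave 402, 499 and 489 units in AdeCre cells, 484, 518 and 479 in AdeLacZ cells and 196 and 240.4 in untreated cells. Its groups did not overlap either, and it rose by 0.99 ± 0.13 in AdeCre (SE, limma adjusted p = 0.0013) and 1.08 ± 0.13 in AdeLacZ cells (adjusted p = 0.00151). Meis1 and Meis2 passed in both comparisons under all 19 settings. Pknox2, a Meis-related homeodomain gene, rose by 0.61 ± 0.12 in AdeCre (adjusted p = 0.00788) and 0.55 ± 0.12 in AdeLacZ cells (adjusted p = 0.0246) with its brightest probe, while 2 dimmer tested probes changed by 0.01 and 0.05 in AdeCre and by -0.03 and 0.01 in AdeLacZ cells. Its call was lost for AdeCre without untreated replicate 1 (limma adjusted p = 0.0822), and for AdeLacZ without that array or any of the AdeLacZ arrays (adjusted p up to 0.209). Pbx2, a binding partner of many Hox proteins, gave 196, 187 and 249 units in AdeCre cells, 184, 143 and 153 in AdeLacZ cells and 113 and 97.4 in untreated cells. All virus-treated arrays lay above both untreated arrays. It rose by 0.82 ± 0.14 in AdeCre against untreated cells (limma adjusted p = 0.00474), and changed by 0.49 ± 0.14 in AdeLacZ cells (adjusted p = 0.0815). A second Pbx2 probe rose in both, by 0.64 ± 0.11 in AdeCre (limma adjusted p = 0.00404) and 0.45 ± 0.11 in AdeLacZ cells (adjusted p = 0.0388). Another changed by -0.13 and 0.10 and passed in neither. Between the virus arms the brightest probes of Pbx2, Pbx3 and Meis3 had the smallest p, at 0.34 ± 0.13, -0.15 ± 0.12 and -0.14 ± 0.14 (limma adjusted p = 0.156, 0.499 and 0.632). The dimmer Pknox1 probe was higher in AdeCre than in AdeLacZ cells without overlap, at 0.38 ± 0.11 (limma adjusted p = 0.0741), while the brightest Pknox1 probe gave 0.01 ± 0.12.

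**Figure D5:**
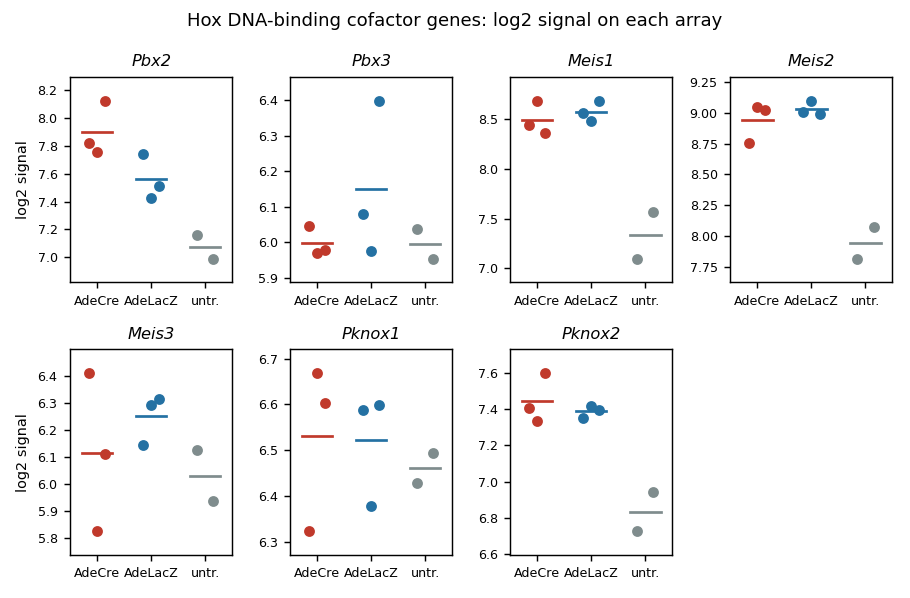
Log2 signal of the 7 tested Hox cofactor genes on every array, in AdeCre, AdeLacZ and untreated (untr.) cells. Points are arrays, the horizontal line is the group mean, and the vertical scale differs between panels. Meis1, Meis2, Pknox2 and Pbx2 lie higher on all virus-treated arrays than on either untreated array.

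Polycomb and trithorax proteins keep Hox genes silent or active, and the Polycomb genes Ezh2, Cbx2 and Phc1 fell in AdeCre against AdeLacZ cells. Of 22 listed genes 17 were tested, and with their brightest probes 0 rose and 3 fell in AdeCre against AdeLacZ cells (1.59% and 3.44% of all probes), with a median log2 change of -0.22. In AdeLacZ against untreated cells 0 brightest probes passed (5.23% of all probes). In AdeCre against untreated cells 0 rose and 3 fell (6.61% and 7.08%). Ezh2, the methyltransferase of Polycomb complex PRC2, gave 488, 437 and 364 units in AdeCre cells, 819, 881 and 895 in AdeLacZ cells and 758 and 916 in untreated cells. The AdeCre arrays lay below all others, and the change in AdeCre against AdeLacZ cells was -0.97 ± 0.12 (SE, limma adjusted p = 0.00331). A second Ezh2 probe above the floor throughout gave -0.18 and did not pass (adjusted p = 0.583), so the probes disagreed.

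Cbx2, a PRC1 subunit that binds methylated histone H3, gave 54.5, 57.7 and 37.8 units in AdeCre cells, 118, 82.0 and 90.4 in AdeLacZ cells and 63.6 and 83.7 in untreated cells. The virus arms did not overlap, with a change of -0.67 ± 0.14 (SE, limma adjusted p = 0.0269). Phc1, another PRC1 subunit, gave 671, 631 and 644 units in AdeCre cells, 865, 950.4 and 826 in AdeLacZ cells and 803 and 873 in untreated cells. It too fell without overlap, by 0.42 ± 0.10 on the log2 scale (limma adjusted p = 0.0341), and a further probe passed at -0.50 (adjusted p = 0.023). With arrays left out in turn, Cbx2 and Phc1 each passed in 2 of 8 fits (limma adjusted p up to 0.0825 and 0.127). The calls ended without any 1 of the AdeCre or AdeLacZ arrays. Against untreated cells the genes that fell in AdeCre cells were Ezh2, Bmi1 and Wdr5, the last 2 named after their values were seen, at -0.67 ± 0.12 and -0.42 ± 0.12 (limma adjusted p = 0.00541 and 0.0415). Bmi1 was lost without untreated replicate 1 (adjusted p = 0.0602), and Wdr5 with any array left out except AdeCre replicate 3. A dimmer probe of Rbbp5, a subunit of trithorax-type complexes, was above the floor, and so tested, through the 3 AdeLacZ arrays only. It was at least 1.09-fold lower in AdeCre than in AdeLacZ cells (limma adjusted p = 0.0179) and at least 1.09-fold higher in AdeLacZ than in untreated cells (adjusted p = 0.0229), while its brightest probe gave -0.22 ± 0.10 and 0.22 ± 0.11 and passed in neither.

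Retinoic acid is a signal that activates 3′ Hox genes in the embryo. Of 17 listed genes of this signal 13 were tested, and with their brightest probes 0 passed in AdeCre against AdeLacZ, AdeLacZ against untreated and AdeCre against untreated cells (5.03%, 5.23% and 13.7% of all probes). Other probes of the receptor genes Rarb and Rxrb did pass. For Rarb a probe almost as bright as the brightest fell in AdeCre against untreated cells, by 0.80 ± 0.11 (SE, limma adjusted p = 0.00152), and in AdeLacZ against untreated cells, by 0.60 ± 0.11 (adjusted p = 0.0104). Another fell in AdeCre against untreated cells, by 0.95 ± 0.21 (adjusted p = 0.0128), while the brightest Rarb probe gave -0.21 ± 0.12 and -0.07 ± 0.12 in AdeCre and AdeLacZ cells. For Rxrb a dimmer probe fell in AdeCre against AdeLacZ cells, by 0.50 ± 0.12 (limma adjusted p = 0.0403), while the brightest gave -0.11 ± 0.10. The probes of both genes thus disagreed in call. The brightest probes had medians of -0.13 in AdeCre against AdeLacZ, 0.01 in AdeLacZ against untreated and -0.06 in AdeCre against untreated cells. Among brightest probes the smallest p between the virus arms were those of the carrier Crabp2 at -0.25 ± 0.12 (SE, limma adjusted p = 0.275), the synthesis enzyme Rdh10 at -0.23 ± 0.14 (adjusted p = 0.373) and the synthesis enzyme Aldh1a2 at -0.19 ± 0.12 (adjusted p = 0.375). In each, AdeCre and AdeLacZ arrays overlapped.

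No tested gene near the clusters rose in any comparison. Of 21 listed genes 16 were tested, and 1 fell in AdeCre against AdeLacZ, 0 in AdeLacZ against untreated and 2 in AdeCre against untreated cells (3.44%, 2.5% and 7.08% of all probes), with median changes of -0.01 in AdeCre against AdeLacZ, -0.13 in AdeLacZ against untreated and -0.08 in AdeCre against untreated cells, in this order. Evx1, the homeobox gene beyond Hoxa13, changed by 0.04 ± 0.13 in AdeCre and 0.21 ± 0.13 in AdeLacZ against untreated cells. Hnrnpa2b1, an RNA-binding protein gene, gave 1099, 1218 and 1175 units in AdeCre cells, 1788, 3214 and 2555 in AdeLacZ cells and 3275 and 2682 in untreated cells. It fell without overlap in AdeCre against AdeLacZ cells, by 1.06 ± 0.18 on the log2 scale (SE, limma adjusted p = 0.0127), but another probe gave 0.51 and did not pass (adjusted p = 0.0853). Cbx5, a heterochromatin protein gene, fell in AdeCre against untreated cells, by 0.47 ± 0.11 (limma adjusted p = 0.0213, lost without AdeCre replicate 1 or untreated replicate 1), and changed by -0.28 ± 0.10 against AdeLacZ cells (adjusted p = 0.14). Hibadh, a mitochondrial enzyme gene, changed by 0.16 ± 0.09 between the virus arms (adjusted p = 0.365).

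Limb genes tied to Hox function gave a mixed picture. Of 31 listed genes 24 were tested. In AdeCre against AdeLacZ cells 0 rose and 3 fell (1.59% and 3.44% of all probes), and in AdeLacZ against untreated cells 2 rose and 2 fell (2.73% and 2.5%). In AdeCre against untreated cells 3 rose and 4 fell (6.61% and 7.08%). The 3 comparisons had medians of -0.04, 0.02 and -0.09. Lhx9, a LIM homeodomain gene of the limb mesenchyme, gave 122, 122 and 116 units in AdeCre cells, 177, 179.6 and 204 in AdeLacZ cells and 170.3 and 162 in untreated cells. The AdeCre arrays were the lowest, and the change was -0.53 ± 0.09 (SE, limma adjusted p = 0.0138), with a further probe that also fell. It was lost without AdeLacZ replicate 3 (limma adjusted p = 0.0596). Gli3, a transcription factor of hedgehog signalling that restrains 5′ Hoxd genes in the anterior limb bud, gave 36.0, 27.3 and 17.6 units in AdeCre cells, 78.2, 62.4 and 57.4 in AdeLacZ cells and 57.4 and 89.0 in untreated cells. It fell without overlap, by 0.76 ± 0.15 (limma adjusted p = 0.0218), and was lost without AdeCre replicate 2 or 3 or AdeLacZ replicate 1 or 2 (adjusted p up to 0.0698).

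Hand2, which acts in the posterior limb bud upstream of Shh, gave 47.7, 54.8 and 38.7 units in AdeCre cells, 77.5, 70.4 and 80.3 in AdeLacZ cells and 78.0 and 59.0 in untreated cells. It fell without overlap, by 0.47 ± 0.12 (SE, limma adjusted p = 0.0464), and was lost without any of the AdeCre or AdeLacZ arrays (adjusted p up to 0.135). Shh, Gli1, Fgf8 and Dlx5 were above the floor on no array. Among genes named after their values were seen, the cartilage regulator Sox9 rose by 0.64 ± 0.13 and the guidance receptor Epha3 by 0.70 ± 0.15 in AdeLacZ against untreated cells (limma adjusted p = 0.0221 and 0.0253). Of the other Epha3 probes 1 also rose there, by 0.62 ± 0.16 (limma adjusted p = 0.0495), and 1 changed by 0.51 ± 0.13 (adjusted p = 0.0557). The muscle patterning gene Meox2 fell by 1.37 ± 0.15 and the signal gene Bmp7 by 0.71 ± 0.14 in the same comparison (limma adjusted p = 0.00132 and 0.0195). Of these 4 genes only Meox2 passed with each array left out. Tbx5 of the forelimb and Tbx4 and Pitx1 of the hindlimb passed in no comparison.

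Markers of other cell types moved between the groups that differ in Hox signal, and their part in the Hox results was not tested. Over all probes tested, 7.08% fell and 6.61% rose in AdeCre against untreated cells. In AdeLacZ against untreated cells 2.5% fell and 2.73% rose. Of 6 tested macrophage markers 5 fell in AdeCre and 3 in AdeLacZ against untreated cells, and their summed intensity was 190 to 224 in AdeCre, 235 to 263 in AdeLacZ and 811 to 1207 units in untreated cells. Of 4 tested erythroid markers 4 fell in AdeCre and 1 in AdeLacZ against untreated cells, with sums of 1309 to 1887, 4166 to 4739 and 6089 to 7216 units in the same order of groups. Of 6 surface ectoderm markers 3 rose in AdeCre and 1 in AdeLacZ cells (sums of 1312 to 1472, 922 to 1119 and 877 to 952 units), while Krt5 and Fgf8 were above the floor on no array. Of 9 limb mesenchyme markers 2 fell in AdeCre and 1 in AdeLacZ against untreated cells, and 0 rose, with sums of 1840 to 2045, 1986 to 2114 and 2316 to 2433 units. Of 7 tested neural markers 1 fell in AdeCre and 2 rose in AdeLacZ against untreated cells, at sums of 556 to 612, 719.6 to 752 and 639.7 to 706 units, and the neural tube genes Pax6 and Olig2 were above the floor on no array. Of 4 somite and muscle precursor markers 1 fell in each virus arm (sums of 768 to 874, 826 to 930.0 and 864 to 908 units), and Pax3 and Pax7 were above the floor on no array. Of 3 endothelial markers 1 fell in each virus arm (sums of 74.5 to 98.4, 98.7 to 109.6 and 142 to 157 units). Between the virus arms 3 erythroid, 2 neural and 1 limb mesenchyme marker fell and 1 ectoderm marker rose in AdeCre cells. Of all probes tested, 3.44% fell and 1.59% rose there.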

How the data were processed

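Total RNA was labelled as biotin cRNA and hybridised to 1-colour bead arrays, per the labels' protocols, and BeadStudio 2.1 is named in the submitters' processing notes. The deposited value table holds background-subtracted intensity values on a linear scale. The method of subtraction and normalization is not given in the sources used here. Of the values 25.7% were below 0, and columns differed by at most 0.190 units at any rank, so the arrays already shared 1 distribution. A further deposited table with 32 columns of per-sample values named by chip position, which no label ties to a sample, was not used.

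The intensities were corrected with normexp (offset 16) in limma 3.58.1 (R 4.3.3) and put on the log2 scale. The floor was 1.645 times each array's background SD, taken from negative values mirrored about 0. Probes above it on at least 2 arrays (15944) were fitted in 1 model with the 3 groups (5 residual and 5.64 prior degrees of freedom). The threshold was an adjusted p (Benjamini-Hochberg over all tested probes, two-sided) under 0.05. Errors of changes are limma's moderated standard errors. For a group wholly below the floor the fold is a lower limit, taken on means against the floor. The model fit was tested on simulated log2 values with changes set in AdeCre cells, scored in AdeCre against AdeLacZ only. The correction, the floor filter, the lower limits and the comparisons with untreated cells were not tested in this way.

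Probes took their gene from GEO's platform annotation, with 23978 named and 1719 unnamed. The probe with the highest mean stood for a gene. The Hox genes, the 12 other gene lists and the naming rule were chosen with earlier results of these data known. Array values are printed for Hox genes past the threshold and for the genes with the smallest p (2 per cluster in AdeCre against AdeLacZ, 4 in each other comparison), and for up to 3 genes a list. Others are named for context, after their values were seen. Alternatives covered correction, filter, normalization, weights, prior, block, probe averaging and each array left out. Same-numbered arrays deviated together at r of -0.142 to 0.0225 and were not treated as pairs.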

Additional observations from a re-analysis of the deposited data

How the results depend on the processing

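Counts of Hox probes that passed were 0 in AdeCre against AdeLacZ, 9 in AdeLacZ against untreated and 14 in AdeCre against untreated cells. In the first, 2 passed with an offset of 50, 2 with a trended and robust prior and 1 with array weights, and 0 to 1 with an array left out. In the second, 1 passed without background correction and 3 to 10 with an array left out. In the third, 9 passed without background correction, 8 without a filter on dim probes, 9 with only the 2 groups compared, and 2 to 13 with an array left out. With the replicate block the counts were 0, 6 and 11, but the numbers only name the arrays. Over all probes the counts of 802, 834 and 2183 were 243, 262 and 1327 without background correction, and 192 to 774, 168 to 849 and 712 to 2008 with an array left out. For the first 2 comparisons they were 1420 and 1440 with an offset of 50, 1432 and 1500 with a trended and robust prior, 406 and 486 without a filter, and 498 and 442 with the replicate block. With probes averaged per gene the first was 514. In AdeCre against AdeLacZ the changes with an array left out were -0.27 to 0.0171 for Hoxb3 and -0.28 to 0.0102 for Meis3, which turned positive without AdeLacZ replicate 3 and without AdeCre replicate 2. Where an untreated array was left out, the lone one was assumed to vary like the other groups. Why these values moved was not tested. Probes near the floor (Hoxa3, Hoxb3, Hoxb7, Hoxb9 and Hoxd11) have the least certain changes. Groups of 3 and 2 arrays are too small for a test of outlying arrays.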
